A study of Mus musculus with 12 samples.

Results

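The liver keeps its own circadian clock, and 10 genes of that clock and its direct outputs are described here: Arntl (also called Bmal1), Npas2, Cry1, Nr1d1, Nr1d2, Per1, Per2, Per3, Dbp and Tef. They were taken by name from the 20143 genes of the deposited table. All 10 were measured in all 12 livers, and all 10 reached a mean of 1 CPM, the minimum for testing. CPM are counts rescaled so that each library sums to 1000000. The livers came from 6 mice lacking Hsd17b13 (KO) and 6 wild-type mice (WT), with 1 RNA library each, and are numbered 1 to 6 within a genotype. KO and WT mice alike began the CDAA-HFD, a choline-deficient diet with defined amino acids and high fat content, at 8 to 10 weeks of age and ate it for 12 weeks. The 12 livers therefore share the diet, and no mice on another diet are part of the comparison. The sources used here do not give strain, sex, litter, the construction of the KO allele, or the hour and feeding state at collection.

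Clock genes form a loop that runs through a cycle of about a day. The proteins of Arntl and Clock, or of Arntl and Npas2, switch on the Per, Cry, Nr1d1, Nr1d2, Dbp and Tef genes, and the Per and Cry proteins then block that activation. The Nr1d1 and Nr1d2 proteins repress Arntl and Npas2, so that in mouse liver Arntl and its targets such as Dbp peak at opposite times of day. Dbp and Tef encode transcription factors that carry the rhythm to metabolic genes, and the liver clock follows both the brain clock and the time of feeding. With 1 liver per mouse, the phase of a clock, its amplitude and the hour at which the liver was taken cannot be told apart.

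Hsd17b13 itself measured 1.18 ± 0.181 CPM in KO livers and 347 ± 36.0 CPM in WT livers (mean ± SD, n = 6 each). In these libraries 1 CPM stood for 46.3 to 77.9 counts, read from the spacing of the low values. At that depth the lowest value of any clock gene, 2.07 CPM of Npas2 in KO mouse 2, came from 95.9 counts with a counting error of 10.2%. Such errors include counting alone, as PCR copies of a molecule were not told apart. The summed CPM of 7 hepatocyte markers ranged between 68630 and 85080 in KO livers and between 67980 and 88390 in WT livers, so the labelled tissue carried its defining transcripts in every library.

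Livers of the same genotype differed widely in their clock genes, by up to 12.9-fold for Dbp among WT mice. Arntl, Npas2 and Cry1 stood high in the WT livers where the other 7 genes stood low, and this opposition was less complete among KO livers. The KO livers lay toward the low Arntl and high Dbp end, but the genotypes overlapped for every one of the 10 genes. Overlap was the rule in these data, with KO and WT ranges apart for only 1.32% of all genes tested. In limma across 15648 genes, 0 of the 10 passed an adjusted p of 0.05 between KO and WT, against 0.198% of all genes. At an unadjusted p under 0.05, 6 of the 10 passed, against 11.3% of all genes. Of these, 4 were higher in KO, a direction in which 3.62% of all genes passed, and 2 were lower, where 7.64% did. Those counts depended on which livers were kept. Without WT mice 1 and 2, a choice made after seeing the data, 1 of the 10 passed the unadjusted threshold. Without WT mouse 6 alone, 8 of the 10 did.

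Among the activators, Arntl, which encodes the obligate partner of Clock and Npas2, measured between 5.16 and 14.0 CPM in KO livers with a median of 9.0, against 8.24 to 24.8 CPM in WT livers with a median of 16.2. All 6 KO livers lay below the WT median, while WT mouse 6, at 8.24 CPM, lay below 4 KO livers. The mean was 9.48 ± 3.16 CPM in KO and 16.7 ± 6.03 CPM in WT, a log2 difference of -0.73 (SE 0.247, limma adjusted p = 0.219, unadjusted 0.0103). Npas2 encodes a relative of Clock that can replace it in the pair with Arntl. It measured between 2.07 and 4.26 CPM in KO livers with a median of 3.28, against 2.89 to 8.70 CPM in WT livers with a median of 6.01. Again all 6 KO livers lay below the WT median, and WT mouse 6 was lowest of its genotype. The log2 difference was -0.67 (SE 0.208, limma adjusted p = 0.173, unadjusted 0.00595), the smallest p among the 10 genes.

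Cry1 encodes a repressor of the Arntl and Clock pair that peaks later in the day than the Per genes. It measured 5.94 ± 0.670 CPM in KO livers and 6.93 ± 1.05 CPM in WT livers, and its values spanned only 4.96 to 8.29 CPM over the 12 mice. The log2 difference was -0.19 (SE 0.0984, limma adjusted p = 0.527), with WT mouse 1 highest and KO mouse 3 lowest.

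Nr1d1 and Nr1d2 encode the REV-ERB nuclear receptors, which repress Arntl. Nr1d1 measured between 80.8 and 146 CPM in KO livers with a median of 119, against 56.4 to 139 CPM in WT livers with a median of 116. WT mice 1 and 2, at 56.4 and 63.1 CPM, were below all other livers, and the remaining WT livers lay inside the KO range. The log2 difference of Nr1d1 was 0.20 (SE 0.221, limma adjusted p = 0.834). Nr1d2 measured between 90.6 and 127 CPM in KO livers with a median of 104, against 61.6 to 110.4 CPM in WT livers with a median of 88.3. All 6 KO livers exceeded the WT median of Nr1d2, and WT mice 1 and 2 were again the lowest. Its log2 difference was 0.34 (SE 0.136, limma adjusted p = 0.328, unadjusted 0.0258).

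The period genes encode the partners of the Cry proteins in the repressive complex. Per1, which in liver also responds to glucocorticoids and feeding, measured between 20.6 and 49.2 CPM in KO livers with a median of 31.8, against 11.8 to 58.7 CPM in WT livers with a median of 30.7. The KO values of Per1 all lay inside the WT range, and the log2 difference was 0.13 (SE 0.336, limma adjusted p = 0.946). Per2 is required for a lasting rhythm in mice. It measured between 12.2 and 38.7 CPM in KO livers with a median of 22.6, against 6.82 to 31.8 CPM in WT livers with a median of 11.9. All 6 KO livers exceeded the WT median of Per2, but WT mouse 6 exceeded 5 of them, and the log2 difference of 0.65 had an SE of 0.378 (limma adjusted p = 0.590). Per3 is the paralog whose loss changes the rhythm least. It measured between 11.8 and 31.3 CPM in KO livers with a median of 18.6, against 5.54 to 22.1 CPM in WT livers with a median of 9.54. Its log2 difference was 0.81 (SE 0.319, limma adjusted p = 0.312, unadjusted 0.0232), and WT mice 1 and 2 were the lowest of the 12 for all 3 period genes.

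Dbp and Tef encode related transcription factors that bind D-box sequences. Dbp measured between 33.8 and 103 CPM in KO livers with a median of 64.1, against 5.61 to 72.3 CPM in WT livers with a median of 26.8. The highest liver, KO mouse 2, held 18.4 times the level of the lowest, WT mouse 1. WT mice 1 and 2 had 5.61 and 7.09 CPM, well below the next WT liver at 26.1 CPM, while WT mouse 6 exceeded 5 of the 6 KO livers. The mean was 63.8 ± 23.6 CPM in KO and 32.1 ± 26.3 CPM in WT, a log2 difference of 1.39 (SE 0.526, limma adjusted p = 0.288, unadjusted 0.0196). Tef followed the same order at the extremes. It measured between 73.4 and 136 CPM in KO livers with a median of 96.2, against 36.6 to 103 CPM in WT livers with a median of 65.8, a log2 difference of 0.61 (SE 0.242, limma adjusted p = 0.317, unadjusted 0.0241).

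**Figure D1:**
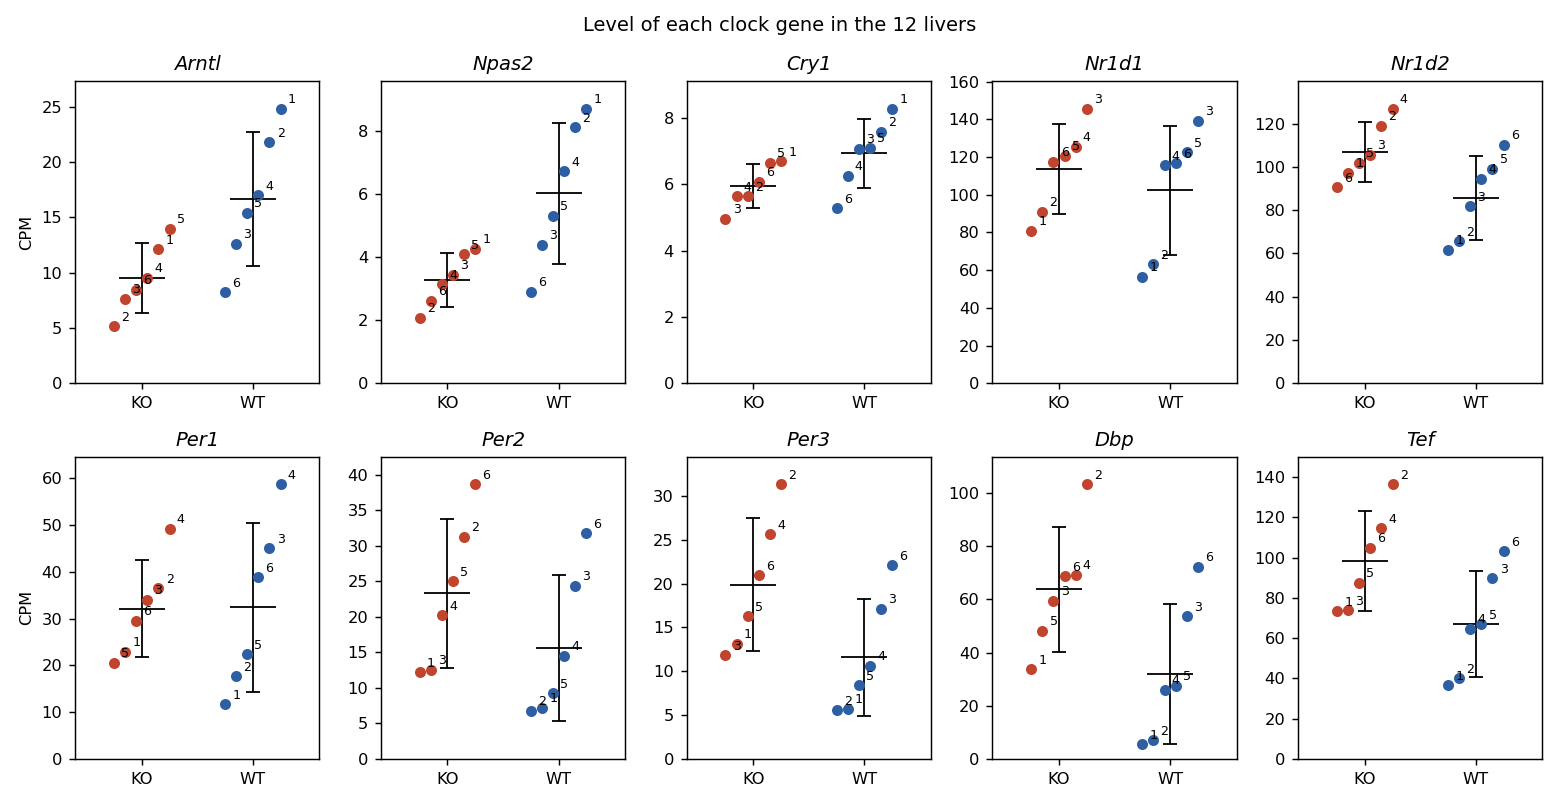
Level of each clock gene in CPM (vertical axes, each starting at 0) in KO livers (left, red) and WT livers (right, blue). Each point is 1 mouse with its number, sorted by level within its genotype, and bars give the mean and SD of 6. WT mice 1 and 2 are the highest for Arntl, Npas2 and Cry1 and the lowest for each of the other 7 genes.

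The plot of levels by mouse shows WT mice 1 and 2 at an end of the scale for every clock gene. They were chosen for that position, so leaving them out had to move each difference toward zero or past it. The values below give the size of that move. Without WT mice 1 and 2 the log2 difference of Dbp was 0.55 (SE 0.323) and that of Arntl was -0.46 (SE 0.242). Npas2 then had a log2 difference of -0.43 and an unadjusted limma p of 0.0476, and was the only one of the 10 under 0.05. Per1 and Nr1d1 turned to -0.33 and -0.14 on the log2 scale without those mice. Leaving out single mice gave 3 to 8 of the 10 genes at an unadjusted limma p under 0.05 and 0 of them at an adjusted one. The count was 3 without KO mouse 2, WT mouse 1 or WT mouse 2. It was 8 without WT mouse 6, the WT liver with the lowest Arntl and the highest Dbp. The share of all genes at the unadjusted threshold was not counted in the fits with mice left out.

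The KO and WT livers were also compared at the same level of Dbp. For this, each liver's Dbp value was added to the limma fit as a covariate after the data had been seen. Dbp is itself a gene of the set and varied with the other 9 within genotype. The fit therefore takes out any genotype shift shared with Dbp, so smaller differences for genes that follow Dbp are built into it. The log2 differences were then 0.01 for Tef (SE 0.10), 0.07 for Per3 (SE 0.19), 0.06 for Nr1d2 (SE 0.11) and -0.02 for Cry1 (SE 0.10). Arntl and Npas2 stood at -0.17 (SE 0.16) and -0.18 (SE 0.12). Per1, Per2 and Nr1d1 changed sign, to -0.56, -0.17 and -0.25. The limma adjusted p was 1.00 for each of these 9 genes in that fit, which called 0.0831% of all genes.

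**Figure D2:**
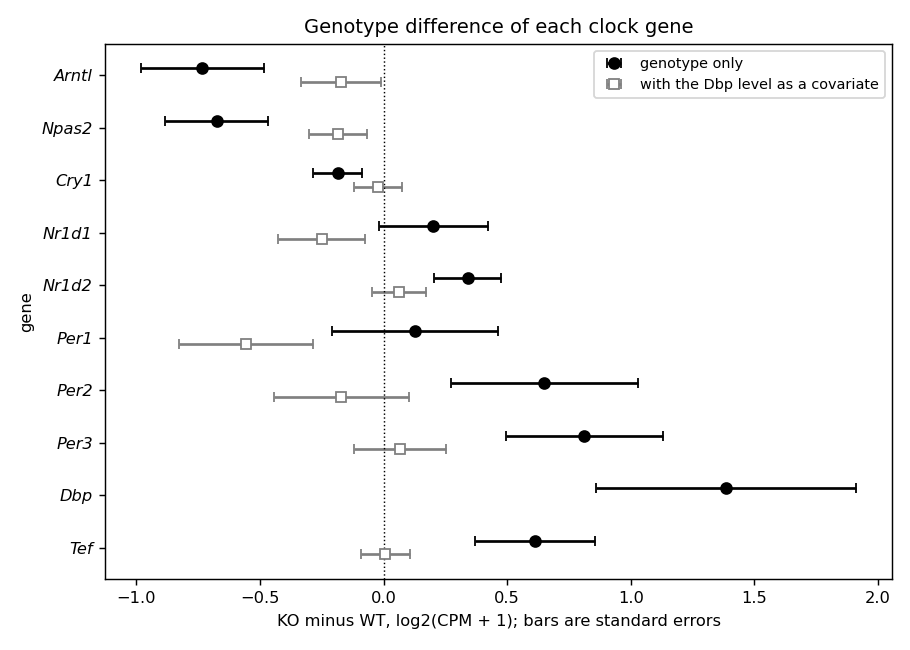
Log2 difference KO minus WT of each clock gene (horizontal axis, log2 of CPM + 1) with its standard error, from the fit on genotype alone (black) and with the Dbp level as a covariate (grey squares, not drawn for Dbp). Dbp has the widest bar and the highest difference, 1.39, and with the covariate Tef, Per3, Nr1d2 and Cry1 lie within 0.07 of zero.

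To place each liver on a single scale, the mean log2 level of Nr1d1, Nr1d2, Dbp, Tef and Per3 was subtracted from that of Arntl and Npas2. This contrast is a description and carries no test. It averaged -3.38 ± 0.625 in KO livers and -2.005 ± 1.20 in WT livers (SD, n = 6 each), and spanned -4.33 to -2.57 in KO and -3.64 to -0.519 in WT. WT mice 1 and 2 had the highest contrasts, -0.519 and -0.781, followed by WT mice 4 and 5 at -1.998 and -2.20. KO mouse 2 had the lowest contrast, -4.33, and WT mouse 6 came next at -3.64, below the other 5 KO livers. Livers of a genotype thus covered 1.76 log2 units in KO and 3.12 in WT, compared with a difference of -1.37 between the genotype means. Without WT mice 1 and 2 the WT mean was -2.68 ± 0.742 (n = 4), and the genotype difference was -0.697.

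**Figure D3:**
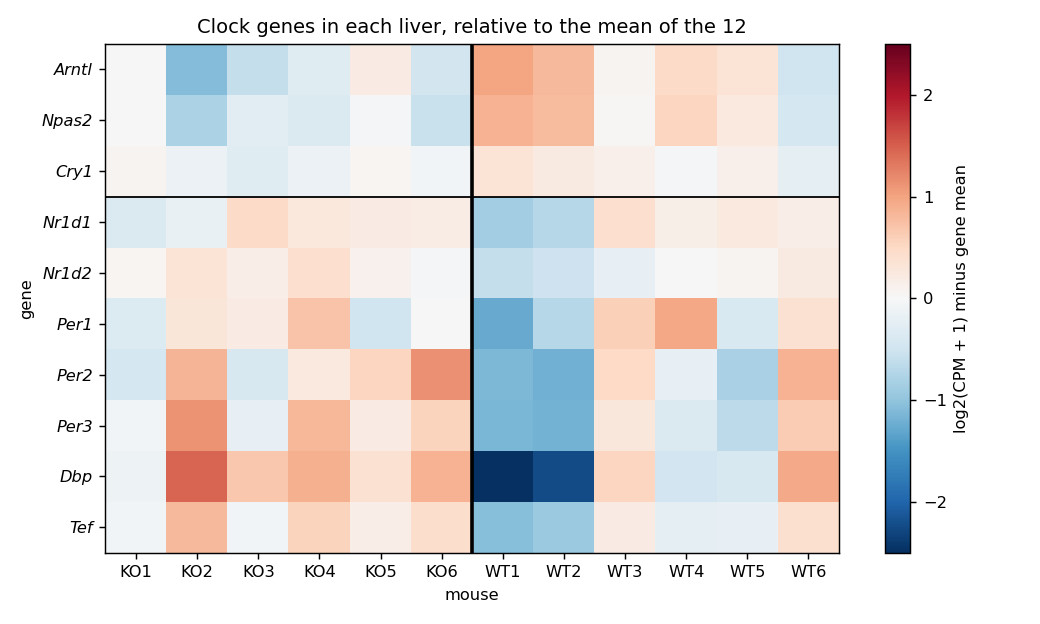
Log2 level of each clock gene (rows) in each mouse (columns, KO left and WT right of the thick line), relative to the mean of the 12 livers, with red above and blue below that mean. Above the thin line Arntl, Npas2 and Cry1 take the opposite colour of most genes below it, most of all in KO mouse 2 and in WT mice 1 and 2, where Dbp lies over 2 log2 units below its mean.

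The heat map shows the 10 genes in opposed blocks, most fully among WT livers. After each gene was centred on its genotype mean, the 3 pairs among Arntl, Npas2 and Cry1 correlated positively across the 12 mice, with Pearson r of 0.702 to 0.945. The 21 pairs among the other 7 genes were also positive, with r of 0.473 to 0.970. All 21 pairs that took 1 gene from each block were negative, with r of -0.924 to -0.473. Within KO livers alone, 18 of those 21 pairs were negative (r of -0.940 to 0.156) and 17 of the 21 pairs among the 7 genes were positive (-0.195 to 0.994). Within WT livers alone, 21 of 21 were negative (-0.959 to -0.586) and 21 of 21 positive (0.694 to 0.999). With WT mice 1 and 2 left out, 19 of the 21 centred pairs across blocks were negative and 17 of the 21 among the 7 genes positive. These values come from the same 12 libraries, share their scaling to CPM, and are given as a description.

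A principal component analysis of the centred log2 levels gave the same split. Its first component held 83.1% of the variance within genotypes (70.9% without WT mice 1 and 2), with loadings of 0.61 for Dbp, 0.39 for Per2, 0.35 for Per3, 0.32 for Per1 and 0.28 for Tef, against -0.25 for Arntl and -0.22 for Npas2. The second component held 7.88% and set Per1 (0.62) and Nr1d1 (0.39) against Per2 (-0.56) and Per3 (-0.26). KO mouse 6 had the highest Per2 of the 12, 38.7 CPM, beside a Per1 of 29.6 CPM and a Dbp of 68.6 CPM. WT mouse 4 had the reverse balance, with the highest Per1 of the 12, 58.7 CPM, beside a Per2 of 14.5 CPM and a Dbp of 26.1 CPM. Per1 and Per2, which share their place in the loop, thus came apart in single livers.

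As the genes varied in blocks, the sequences before their starts are shown where a known clock element was present. Windows from 250 bases before to 50 bases after each RefSeq start (GRCm38.p6) were searched on both strands for the E-box CACGTG bound by the Arntl pair, its variant CACGTT, the D-boxes TTATGTAA and TTACGTAA bound by Dbp and Tef, and the Nr1d1 response elements TAGGTCA and TAGGTTA. Of the 10 genes, 9 had a window (all but Per2), 12 windows in all, and each stretch below runs 5′ to 3′ on the strand of its gene with the match in capitals.
Per1: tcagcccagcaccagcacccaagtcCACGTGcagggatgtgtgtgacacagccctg
Cry1: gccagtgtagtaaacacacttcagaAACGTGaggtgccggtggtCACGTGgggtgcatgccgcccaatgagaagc
Tef: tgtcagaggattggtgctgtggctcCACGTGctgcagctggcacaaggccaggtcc
Tef: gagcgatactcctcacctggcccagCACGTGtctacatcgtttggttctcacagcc
Nr1d1: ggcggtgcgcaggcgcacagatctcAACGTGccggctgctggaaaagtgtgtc
Per3: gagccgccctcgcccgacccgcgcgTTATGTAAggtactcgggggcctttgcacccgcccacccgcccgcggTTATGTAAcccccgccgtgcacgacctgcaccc
Arntl: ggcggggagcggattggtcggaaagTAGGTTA

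Per1 (chr11:69098758-69098813, plus strand) carried an E-box beginning 166 bases before its start. Cry1 (chr10:85185084-85185158, minus strand) carried an E-box at 60 bases and the variant, printed as its reverse complement AACGTG, at 79 bases before its start. Tef has RefSeq starts with an E-box at 127 bases (chr15:81802521-81802576) and at 138 bases (chr15:81811251-81811306) upstream, both on the plus strand. Nr1d1 (chr11:98775378-98775430, minus strand) carried the variant at 28 bases. Per3 (chr4:151044791-151044895, minus strand) was the only one of the 9 with a D-box, in 2 copies at 205 and 158 bases before its start. Arntl (chr7:113207480-113207511, plus strand) was the only one of the 9 with an Nr1d1 response element, 6 bases before 1 of its starts, and a further TAGGTCA lay 31 bases after that start.

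Among all 32851 RefSeq windows of 300 bases, 7.15% held the E-box, 4.68% its variant, 1.06% a D-box and 4.0% an Nr1d1 response element. Dbp, Nr1d2 and Npas2 had none of these letters in their windows. A match describes the sequence and was not tested for binding in these livers, and a missing match covers only these letters in this window.

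Of the 3 gene pairs chosen for testing across mice, Dbp with Arntl passed over all livers and within WT, and not within KO. Over the 12 livers Pearson r was -0.916 and Spearman rho -0.930 (permutation test, two-sided, p = 2e-05 for r, adjusted over 9 relations 0.00018). For all 3 pairs, levels over livers of both genotypes were neither centred nor permuted by genotype, so genotype differences enter r and p. Centred by genotype, Dbp with Arntl had an r of -0.871. Within WT livers r was -0.949 and the ranks were exactly opposed (exact permutation p = 0.00417 for r, adjusted 0.0187), and within KO livers r was -0.850 and rho -0.714 (exact permutation p = 0.0403 for r, adjusted 0.117). After quantile normalization the KO relation had r of -0.924 and an adjusted exact permutation p of 0.0458. Leaving out WT mouse 1, 2 or 5 left the WT relation at r of -0.924, -0.947 or -0.952, with adjusted exact permutation p of 0.121, 0.113 and 0.075. Without KO mouse 2 and WT mouse 1, the livers farthest from the median of Arntl, r was -0.884 (permutation p = 0.00026). Without WT mice 1 and 2 it was -0.903 (permutation p = 0.00033).

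**Figure D4:**
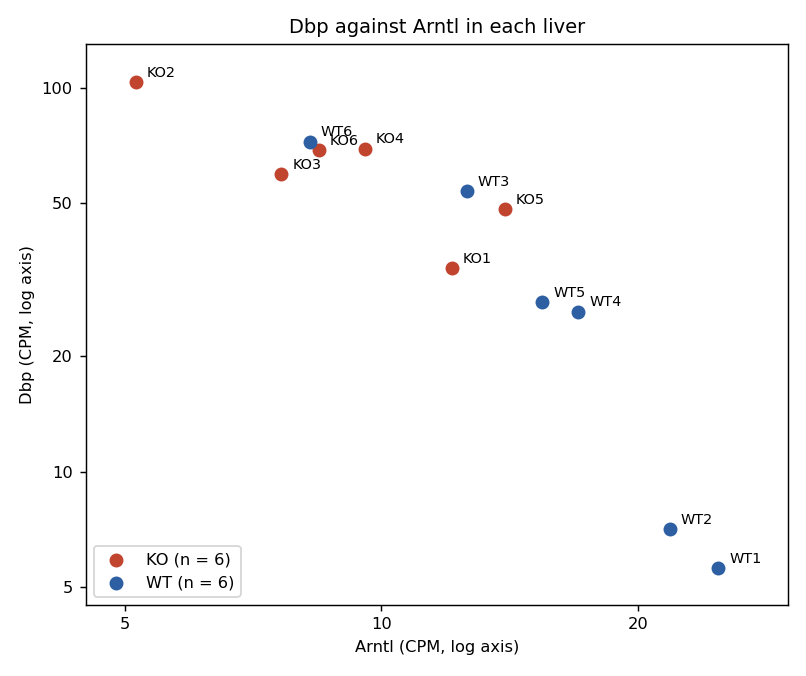
Level of Dbp against that of Arntl in each liver, both in CPM on log axes, with KO mice in red and WT mice in blue. The livers fall along a descending line. It runs from KO mouse 2, at 103 CPM of Dbp and 5.16 CPM of Arntl, to WT mouse 1, at 5.61 and 24.8 CPM. WT mice 3 and 6 lie among the KO livers. WT mice 1, 2, 4 and 5 lie below every KO liver in Dbp and above every KO liver in Arntl.

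The other pairs rested on few livers. Nr1d1 with Arntl had an r of -0.529 and a rho of -0.413 over the 12 livers (permutation p = 0.0780 for r, adjusted 0.117), 0.0208 within KO and -0.770 within WT, and 0.162 without WT mice 1 and 2. Per2 with Nr1d1 had an r of 0.557 and a rho of 0.322 over the 12 livers (permutation p = 0.0614 for r, adjusted 0.117), -0.00621 within KO and 0.749 within WT. It was -0.0275 without WT mice 1 and 2, which were also the livers farthest from the median of Nr1d1. Of the 3 pairs, Dbp with Arntl alone kept its sign and its side of the threshold without WT mice 1 and 2.

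Several clock genes ranked among the most variable genes of these livers, partly through WT mice 1 and 2. The SD between mice of a genotype, on the log2 scale, was 1.07 for Dbp, which ranked 11 of 15648 genes. It was 0.767 for Per2 (rank 57), 0.681 for Per1 (rank 83) and 0.644 for Per3 (rank 103). Arntl, Tef, Nr1d1 and Npas2 had SDs of 0.496, 0.488, 0.444 and 0.410, and Nr1d2 had 0.268. Cry1, at 0.172, was close to the median of all genes, 0.160. Without WT mice 1 and 2 the SD was 0.605 for Dbp (rank 151 of 15562 genes), 0.687 for Per2 (rank 87), 0.549 for Per3 (rank 244), 0.495 for Per1 (rank 353) and 0.445 for Arntl (rank 536). Nr1d1 and Nr1d2 then had SDs of 0.258 (rank 2810) and 0.179 (rank 6360), nearer to the median of all genes, 0.159.

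**Figure D5:**
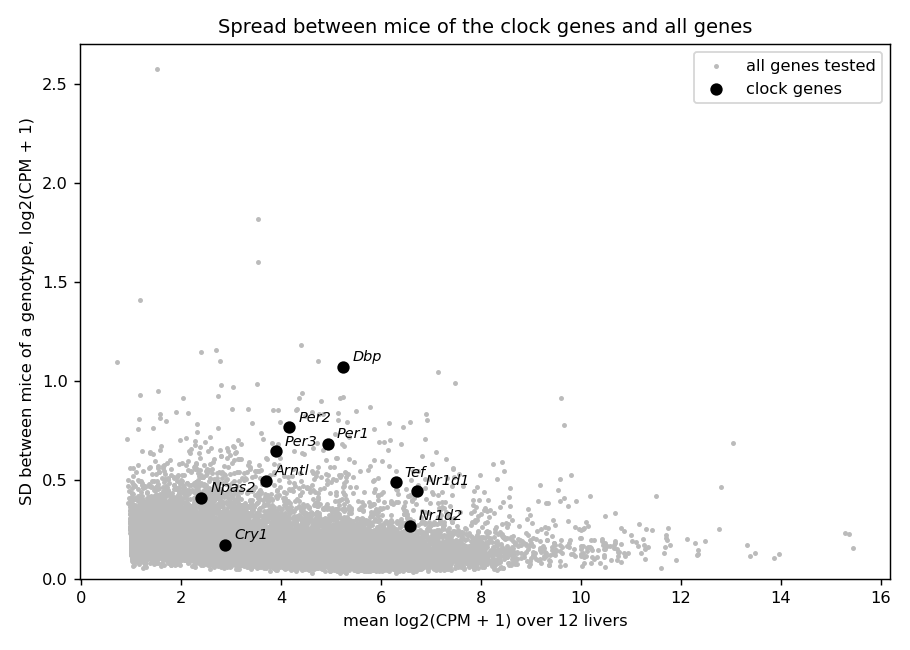
SD between mice of a genotype (vertical axis, log2 of CPM + 1) against the mean level (horizontal axis, log2 of CPM + 1) for the 10 clock genes (black) and all 15648 genes tested (grey). Dbp, Per2, Per1 and Per3 lie at the upper edge of the genes of their level, and Cry1 lies in the bulk.

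WT livers spread more than KO livers for all 10 genes, whereas 51.8% of all genes had the larger SD in WT. For Dbp the SD was 0.534 log2 units in KO and 1.42 in WT, for Per1 0.446 in KO and 0.854 in WT, and for Arntl 0.455 in KO and 0.534 in WT. In a limma fit on the deviations from the genotype mean, 0 of the 10 genes and 0% of all genes passed an adjusted p of 0.05, while 5.47% of all genes passed unadjusted, 2.67% with the wider spread in WT. Dbp alone of the 10 passed the unadjusted threshold in that limma fit, at 0.0292 (adjusted p = 0.904). Among KO livers and WT mice 3 to 6 alone, 6 of the 10 genes had the larger SD in WT, and Nr1d1, Nr1d2, Arntl and Tef had the larger SD in KO. The SD of WT mice 3 to 6 was 0.707 for Dbp and 0.569 for Per1, smaller than over all 6 WT mice.

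How far the rest of the transcriptome moved with the clock was asked by fitting every gene on the Dbp level within genotype, a fit added after seeing the data. The limma fit called 9 of 15647 genes, 0.0575%, of which 0.032% rose with Dbp and 0.0256% fell, and 3 of them were clock genes. Tef rose by 0.44 log2 units per log2 unit of Dbp (SE 0.0411, limma adjusted p = 0.000699), Per3 rose by 0.54 (SE 0.0781, adjusted p = 0.0292), and Npas2 fell by 0.35 (SE 0.0496, adjusted p = 0.0292). All 9 clock genes other than Dbp had an unadjusted p under 0.05, against 11.1% of all genes, and their slopes were negative for Arntl, Npas2 and Cry1 and positive for the other 6, against 7.55% and 3.55% of all genes in these directions. Tef was called in all 12 fits that left out 1 mouse, which called 1 to 12 genes. Without WT mice 1 and 2 together the fit called 0 genes, with 517 under 0.05 unadjusted, and 5 of the 9 clock genes were among those: Tef (slope 0.51), Per3 (0.80), Per2 (0.88), Arntl (-0.65) and Npas2 (-0.54).

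The 6 other genes called were named after their values were seen. Without KO mouse 1, WT mouse 1 or WT mouse 2 alone, the fit called Tef only, so all 6 were lost. Slc38a3, a glutamine transporter of hepatocytes, rose with Dbp by 0.25 (limma adjusted p = 0.0292), as did Srebf1, which encodes the activator of fatty acid synthesis genes, by 0.27 (0.0441), and Gnat1, a transducin subunit known from rod cells, by 0.31 (0.0447). Clpx, which encodes the unfoldase of a mitochondrial protease, fell by 0.28 log2 units per log2 unit of Dbp (limma adjusted p = 0.0233). Ndrg1 fell by 0.24 (0.0434) and Lgalsl, a galectin-like gene, by 0.28 (0.0447).

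A list of 15 other clock regulators was measured in full. Between KO and WT, 0 of 15 passed in limma, against 0.198% of all genes. By the unadjusted threshold 3 were higher in KO and 1 lower, against 3.62% and 7.64% of all genes. The median log2 difference was -0.01, against -0.03 for all genes. Nfil3, which encodes the repressor that competes with Dbp and Tef at D-boxes, measured 15.6 ± 3.62 CPM in KO livers and 25.7 ± 6.97 CPM in WT livers (log2 difference -0.67, SE 0.186, limma adjusted p = 0.127). Hlf, the relative of Dbp and Tef, measured 32.7 ± 4.60 CPM in KO livers and 26.1 ± 4.43 CPM in WT livers (log2 difference 0.32, adjusted p = 0.267). Usp2, a rhythmic deubiquitinase, measured 10.6 ± 5.32 CPM in KO livers and 5.85 ± 2.80 CPM in WT livers (0.73, adjusted p = 0.349).

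Of these 15 regulators, 8 had an unadjusted p under 0.05 in the fit on Dbp against 11.1% of all genes, and 0 an adjusted one. When single mice were left out, 6 to 9 of the 15 passed unadjusted. The number of all genes that did so also moved, from 639 without WT mouse 1 to 2522 without WT mouse 6. Bhlhe40, an E-box repressor, had a slope of 0.41 (limma adjusted p = 0.0771), Ciart, another repressor of the Arntl pair, 0.45 (0.235), Usp2 0.41 (0.255), Cry2 0.23 (0.195) and Hlf 0.18 (0.156). Nfil3, Clock and Rora had slopes of -0.21 (0.389), -0.16 (0.195) and -0.08 (0.444). Bhlhe41, Csnk1d, Csnk1e, Btrc and Timeless, which encode a repressor, kinases and a ubiquitin ligase part that set the stability of clock proteins, and a clock-related replication factor, had slopes between -0.02 and 0.09. Clock had the sign of its paralog Npas2 and Hlf that of its relative Tef, whereas Cry2 had the opposite sign of Cry1.

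Other lists were read for signals that can shift a liver clock or follow it. Among 14 rhythmic liver outputs, 0 passed between KO and WT, 3 were higher in KO at an unadjusted p under 0.05 (3.62% of all genes), and 8 of 14 had an unadjusted p under 0.05 in the fit on Dbp (11.1% of all genes). Alas1, the rate-limiting enzyme of heme synthesis, measured 494 ± 126 CPM in KO livers and 304 ± 82.8 CPM in WT livers (limma adjusted p = 0.148). Nampt, which recycles nicotinamide to NAD, measured 84.4 ± 16.1 CPM in KO livers and 63.7 ± 5.96 CPM in WT livers (adjusted p = 0.126). Por, the electron donor of cytochrome P450 enzymes, measured 151 ± 21.3 CPM in KO livers and 128 ± 18.8 CPM in WT livers (adjusted p = 0.431). Upp2, a uridine phosphorylase, measured 107 ± 62.4 CPM in KO livers and 59.3 ± 28.4 CPM in WT livers (adjusted p = 0.461), and had a slope of 0.57 on Dbp (adjusted p = 0.213).

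Of 12 feeding and fasting genes, 0 passed between KO and WT. In the fit on Dbp 1 of 12, Srebf1, passed, against 0.0575% of all genes. An unadjusted limma p under 0.05 in that fit was found for 4 of 12, against 11.1% of all genes. Pdk4, a fasting-induced brake on glucose oxidation, had a slope of -0.54 on Dbp (limma adjusted p = 0.0847) and measured 29.9 ± 11.5 CPM in KO livers and 52.2 ± 26.5 CPM in WT livers (adjusted p = 0.462). G6pc, the last enzyme of glucose release, measured 151 ± 75.9 CPM in KO livers and 221 ± 53.8 CPM in WT livers (adjusted p = 0.375). Igfbp1, a secreted binder of insulin-like growth factors that insulin lowers, had a log2 difference of -0.80 (adjusted p = 0.614), and Ppargc1a, a coactivator of fasting genes, one of 0.19 (adjusted p = 0.718).

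Of 9 glucocorticoid response genes, 0 passed between KO and WT and 0 in the fit on Dbp, against 0.198% and 0.0575% of all genes. Unadjusted, 1 was higher in KO and 1 lower, against 3.62% and 7.64% of all genes. In the fit on Dbp 2 of 9 had an unadjusted limma p under 0.05, both rising with Dbp, against 11.1% of all genes. Fkbp5, a feedback chaperone of the glucocorticoid receptor, measured 37.9 ± 5.77 CPM in KO livers and 27.5 ± 4.63 CPM in WT livers (limma adjusted p = 0.114), while Sgk1, a kinase, measured 40.1 ± 5.60 CPM in KO livers and 49.5 ± 10.2 CPM in WT livers (adjusted p = 0.400). Tat, an enzyme of tyrosine breakdown, and Klf9, a transcription factor, had log2 differences of 0.14 and 0.12. Of 8 temperature response genes, 0 passed either fit and 0 had an unadjusted p under 0.05 in either. Among them the chaperone genes Dnajb1, Hspa1b and Hspa1a had log2 differences of 0.09, 0.15 and -0.12, and the cold-inducible Cirbp one of -0.13. Hspa1a and Hspa1b are near-identical copies, so their split is uncertain.

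The genes whose level most resembled Arntl over the 12 mice were ranked by Pearson r of log2 levels centred by genotype, among the 9178 other genes whose mean reached 10 CPM. Lgalsl (0.940), Ypel2 (0.918), Ndrg1 (0.914) and Insig2 (0.900) had the highest r, and Slc5a6 (-0.880), Pgpep1 (-0.859), Zfp970 (-0.834) and Alas1 (-0.831) the lowest. Npas2, at 0.945, was closer to Arntl than any of them. For Dbp the highest were Stbd1 (0.925), Slc38a3 (0.925), Jade1 (0.924) and Ppara (0.898), the lowest were Caprin1 (-0.935), Clpx (-0.923), Ndrg1 (-0.905) and Rab9 (-0.899), and Tef reached 0.957. For Per2 the highest were Thrsp (0.930), 1810055G02Rik (0.929), Anks4b (0.897) and ENSMUSG00000118671 (0.894), which the annotation leaves without a symbol. The lowest for Per2 were Gm2996 (-0.934), Rnf125 (-0.929), Serpinb8 (-0.913) and Clpx (-0.901). These are the extremes of a ranking over 12 libraries and are given with no test.

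Markers of other liver cells also had different averages in KO and WT livers. All 6 markers of recruited macrophages averaged lower in KO livers, as did 9509 of the 15648 genes tested. Their summed levels were 820.5 to 1242 CPM in KO and 1224 to 2142 CPM in WT. In limma 0 of 6 passed, and 4 were lower at an unadjusted p under 0.05, against 7.64% of all genes. All 4 cholangiocyte markers averaged lower in KO livers, with sums of 19.95 to 37.6 CPM in KO and 41.1 to 93.0 CPM in WT. Of these, 4 of 4 were lower by the unadjusted threshold. Krt7 alone of the 4 passed in limma (adjusted p = 0.0495), against 0.0959% of all genes passing as lower. The 4 Kupffer cell markers tested averaged higher in KO livers, with sums of 304 to 468 CPM for all 5 listed in KO and 182 to 322 CPM in WT. Of the 4, 0 passed and 3 were higher by the unadjusted threshold, against 3.62% of all genes. Within genotype, 3 of 6 macrophage, 2 of 4 cholangiocyte and 2 of 4 Kupffer cell markers had an unadjusted p under 0.05 in the fit on Dbp, and 1 of 7 hepatocyte markers did, against 11.1% of all genes. Of 5 markers of stellate cells and fibroblasts, 4 averaged lower in KO livers, with sums of 727 to 919 CPM in KO and 823 to 1358 CPM in WT. By the unadjusted threshold 3 of the 5 were lower and 1 higher in KO, against 7.64% and 3.62% of all genes, and 0 passed. Of the markers of T cells (4 tested), B cells (4) and endothelial cells (4), 0 passed between KO and WT, against 0.198% of all genes. Every one of these averaged higher in KO livers, as did 6139 of the 15648 genes tested. Unadjusted, 1 T cell, 0 B cell and 1 endothelial marker passed as higher, against 3.62% of all genes. Pancreatic acinar cells, adipocytes and erythroid cells had 1 measured marker each, and 0 of these 3 passed, with Cela1 of acinar cells at 4.99 to 94.4 CPM in KO livers and 5.42 to 224 CPM in WT livers. Among the measured markers, 0 were at 0 in all livers. Their part in the clock gene levels was not tested, and fewer cells of a type cannot be told apart from less RNA per cell in bulk liver.

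Some of the 10 genes overlap others on the opposite strand, and the sources used here do not say whether counting used strand. Dbp (chromosome 7, 45705088 to 45710203, mm10) shares 539 exon bases with Sphk2, which measured 58.4 CPM in KO livers and 58.2 CPM in WT livers on average. Nr1d1 (chromosome 11, 98767932 to 98775333) shares 263 exon bases with Thra, which measured 19.0 CPM in KO livers and 20.5 CPM in WT livers. Tef (chromosome 15, 81802421 to 81826863) shares 193 exon bases with an antisense gene, and Arntl (chromosome 7, 113207465 to 113314126) shares 33 with another. Nr1d2 has a copy, AC170187.1, with 96.1% identity over 1385 bases. The levels of Sphk2 spanned 1.40-fold over the 12 livers, compared with 18.4-fold for Dbp.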

How the data were processed

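Bulk RNA sequencing of 12 livers was read from 1 table of 20143 genes. The values the authors deposited are CPM, since each column sums to 1000000. The submitters' processing notes name mm10, Partek 10.0, STAR 2.7.3a and DESeq2 1.14.1 with no role for each. Per the labels' protocols, libraries were made after globin and rRNA depletion with a directional kit, although the molecule label says polyA RNA. The sources used here name no counting tool or setting. Of values under 0.5 CPM, 71.9% to 77.2% per library lay within 0.02 of a whole multiple of a common step, which gave the depth. The rest were fractional, so tests were made on a log scale and none on counts.

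CPM were converted to log2(CPM + 1), which understates changes of low genes. Genes whose mean reached 1 CPM were compared, KO minus WT, in R 4.3.3 with limma 3.58.1. Its moderated variances followed the mean, tests were two-sided, and p-values were adjusted by Benjamini and Hochberg with a threshold of 0.05. The same fit was run on absolute deviations from the genotype mean and, added after seeing the data, with the Dbp level as a covariate. Correlations used 100000 permutations over 12 mice or all 720 pairings within a genotype (SciPy 1.17.1, Python 3.11.15). These steps were tested on simulated data. The labels give no litter or batch, so p-values measure the spread between these mice. The 12 columns were matched to mice by title. Symbols and positions of 20055 genes came from GENCODE for mm10, and copies were sought with BLASTN 2.17.0 (at least 95% identity over 100 bases). The 10 genes and all lists were chosen with earlier results of these data known. Named genes were Hsd17b13, the 10 genes, the 15 other clock regulators, the 4 genes with the smallest p of each other list, and the 4 highest and 4 lowest correlates of Arntl, Dbp and Per2. Of the genes so taken, 2 clock regulators are counted in their list and not reported singly here. Genes named outside this rule are the 6 others called in the fit on Dbp, Krt7, Cela1, AC170187.1 and the overlapping genes. Alternatives were other pseudocounts, filters, scalings, fit settings and left-out mice.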

Additional observations from a re-analysis of the deposited data

How the results depend on the processing

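Across 227 alternative values for the 10 clock genes between KO and WT, 0 passed an adjusted p of 0.05, and 219 kept the direction reported. The exceptions were Per1, which ranged from -0.11 to 0.33 when single mice were left out, was -0.33 without WT mice 1 and 2 together and -0.56 with the Dbp level as a covariate, Nr1d1 (-0.14 and -0.25 in the same settings) and Per2 (-0.17 with the covariate). Of 228 alternative values for spread, 222 kept their direction. Without single mice the spread difference of Cry1 ranged from -0.0624 to 0.0177 and that of Arntl from -0.126 to 0.0480, positive without WT mouse 6. Without WT mice 1 and 2 together it was 0.162 for Nr1d1, 0.0167 for Nr1d2, 0.0311 for Arntl and 0.0248 for Tef, wider in KO.

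Limma called 31 genes between KO and WT. It called 20 with a pseudocount of 10, 14 at a mean of at least 10 CPM, 70 after quantile normalization, 74 after median-of-ratios scaling, 212 with library weights, 13 with the Dbp covariate, 15 without WT mice 1 and 2, and 15 to 50 without single mice. The split of calls was 16 higher and 15 lower in KO, against 32 and 38 after quantile normalization and 29 and 45 after median-of-ratios scaling. The spread fit called 1 gene without the mean trend, 1 without WT mice 1 and 2 and 0 to 1 without single mice. The fit on Dbp called 5 genes without the mean trend, 522 with library weights, 0 without WT mice 1 and 2, and 1 to 12 without single mice. The cause was not tested.

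Nr1d1 with Arntl over 12 mice ranged from -0.735 to -0.309 without single mice, passed an adjusted p without KO mouse 2, and was 0.162 without WT mice 1 and 2. Within KO it ranged from -0.560 to 0.495 without single mice, and was -0.0146 with a pseudocount of 10, -0.0596 after quantile normalization and -0.159 after median-of-ratios scaling. Per2 with Nr1d1 was -0.0275 without WT mice 1 and 2 and ranged from -0.735 to 0.483 within KO without single mice. The genotype difference of the contrast between activators and their targets ranged from -1.70 to -1.08 without single mice and was -0.854 with a pseudocount of 10.

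The labels do not say that a number marks a shared litter or day. Deviations of same-numbered KO and WT mice over all genes correlated at 0.396, 0.130, -0.0907, 0.149, -0.506 and 0.419 for numbers 1 to 6, and at 0.934, -0.862, -0.198, 0.708, 0.0151 and 0.616 over the 10 clock genes. Over all genes, mice 1 and 6 correlated best with their own number and the rest did not. The numbers were not used as pairs, since numbers 3 and 5 had negative correlations. With the replicate number as a block, 43 genes were called between KO and WT, 22 of them shared with the 31, and 0 in the fit on Dbp, with 433 under 0.05 unadjusted. With 6 mice per genotype, Dbp had SDs of 0.534 log2 units in KO and 1.42 in WT. Its difference of 1.39 had an SE of 0.526. Whether depth limited the calls was not tested.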
